A study of Mus musculus with 8 samples.

Results

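The genes described here are Met, the receptor of hepatocyte growth factor, its ligand Hgf, the ErbB family receptors Egfr, Erbb2 and Erbb3, and the Egfr ligands Hbegf, Areg and Btc. They were taken as every non-control probe whose gene name on the array equals 1 of these 8 symbols. That gave 10 probes on 37 spots of each array, out of 55681 probes and 59305 non-control spots. The arrays measured RNA of satellite cells, the stem cells of skeletal muscle, which were sorted by flow cytometry as positive for integrin alpha 7 and negative for CD31, CD45, CD11b and Sca1. Injured samples (n = 4 arrays) came from muscle 3 days after cardiotoxin, a venom toxin that destroys muscle fibres, and basal samples (n = 4 arrays) from basal muscle, in homeostasis per the submitters. All mice are labelled as male C57BL/6 animals aged 3 months, each array as a separate biological replicate, with no treatment shared by both groups and nothing said of pooled animals. The submitters describe the cells of injured muscle as activated and those of basal muscle as quiescent, and the comparison asks how these receptors and ligands differ between them.

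Met is a receptor tyrosine kinase. Its ligand is kept in the matrix around muscle fibres as an inactive precursor, and hepatocyte growth factor is known as a signal that brings quiescent satellite cells into the cell cycle. ErbB receptors work in pairs: Egfr binds its own ligands, Erbb2 binds none and acts as a partner, and Erbb3 binds neuregulins but has a kinase with little activity. Egfr ligands are made as membrane-anchored precursors that ADAM proteases cut free, and both receptor families feed the Ras-ERK and PI3 kinase pathways.

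Of the 8 genes, 6 could be tested. Injured satellite cells had higher Met and Areg signal and lower Egfr and Erbb2 signal than basal cells. Met was 5.54-fold higher, whereas Egfr was 1.82-fold lower and Erbb2 1.43-fold lower. The size of the Areg difference rests on basal values that were mostly not above background, and it was 3.21 or, after another background correction, 0.99 on the log2 scale. Erbb3 and Hbegf were not called, and Hgf and Btc were not above background on any array. Over all 13634 genes tested, 35.4% were called higher and 24.8% lower, 60.1% in either direction, so 4 called of 6 tested lies near the share of all genes. RNA was measured in bulk, so fewer cells of a type and less RNA per cell cannot be told apart.

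The sequences of the probes are shown first, since each value below is the signal of 1 such 60-base probe, or the mean of up to 10 spots of it. For each probe the central 30 bases are given, 5′ to 3′, as the array design holds them, with positions from the array files on mouse build mm9. Which exon or untranslated region each probe lies in was not annotated here. The 3 Egfr probes are shown together because they lie 3616 and 30259 bases apart from the first of them.
Met, A_51_P103929, chr6:17503299-17503358, plus strand: tgacgagtggagactctgatatatccagcc
Egfr, A_55_P1956863, chr11:16783556-16783615, plus strand: atgccaataatgtctgccacctatgccacg
Egfr, A_55_P1956862, chr11:16787172-16787231, plus strand: gggtacgttcaatggcagtggatcttaaag
Egfr, A_52_P106259, chr11:16813815-16813874, plus strand: aactgtagcaatgaaaccctagtatttttg
Erbb2, A_52_P49250, chr11:98298103-98298162, plus strand: gtgccctgaggaacctcgctcgatgcttca
Erbb3, A_55_P2119897, chr10:128006424-128006483, minus strand: tggcatagcaggcttttccctaaggctaac
Areg, A_52_P482897, chr5:91570090-91570149, plus strand: taatgaaccacaaatatccggctatattat

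The 250 bases before the start sites of Met and Areg are printed because these were the 2 genes called higher. They come from RefSeq, build GRCm38.p6, whose positions differ from those of mm9. Matches on either strand are in capitals, and none of the matches shown overlap. The letters searched were TGANTCA for AP-1, TGACGTCA for the cyclic AMP response element (CRE), GGGCGG for the GC box, CAGCTG for the E-box and, for the TATA box, the letters TATAAA.
Met, chr6:17463707-17463956, plus strand: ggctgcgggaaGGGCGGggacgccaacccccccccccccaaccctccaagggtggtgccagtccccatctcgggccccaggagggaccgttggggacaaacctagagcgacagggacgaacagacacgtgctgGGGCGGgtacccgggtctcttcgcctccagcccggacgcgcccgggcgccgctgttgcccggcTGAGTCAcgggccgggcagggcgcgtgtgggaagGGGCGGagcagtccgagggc
Areg, chr5:91139349-91139598, plus strand: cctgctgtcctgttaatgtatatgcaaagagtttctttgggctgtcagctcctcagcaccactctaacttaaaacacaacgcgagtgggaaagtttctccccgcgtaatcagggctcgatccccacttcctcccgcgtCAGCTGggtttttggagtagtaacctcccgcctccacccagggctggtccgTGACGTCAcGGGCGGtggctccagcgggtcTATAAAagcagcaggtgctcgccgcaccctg
The Met window held an AP-1 match that begins 54 bases before the start site, and GC boxes at 239, 117 and 20 bases. The Areg window held a CRE match at 61 bases, a GC box at 52, an E-box at 112 and a TATA box at 31. Among 32851 RefSeq promoter windows of the same length, 6.75% held the AP-1 letters, 1.55% the CRE letters, 32.7% a GC box, 13% this E-box and 12.4% a TATA box. The Egfr window held 1 GC box, 9 bases before the start, and the Erbb2 window had no match to these letters. A match is a stretch of letters and does not show that a factor binds there.

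Facts of the whole set of arrays bear on all of these values. Between 50.1% and 56.7% of non-control spots were well above background, and none was saturated. Across 10661 genes, themselves no independent replicates, pairs of injured arrays had r of 0.989 to 0.996 and pairs of basal arrays 0.955 to 0.978, and r was 0.832 to 0.922 across groups. Injured arrays were on 1 slide with its own scan and basal arrays on another, so the slide and the injury cannot be told apart. The X-inactivation RNA Xist lay at 6.37 to 6.57 on injured 2, 3 and 4, where none of 4 Y-linked genes was above background, against the label of male mice. On injured 1 Xist lay at 1.72 with all 4 Y-linked genes above background. Basal 1 and 2 had Xist at 3.85 and 2.15 with 2 of the 4 Y-linked genes above background, and basal 3 and 4 had it at -1.12 and -4.97 with all 4. Sex and injury thus cannot be told apart for 3 of the 4 injured arrays. Basal 1 and 2 also had the highest signal of Pecam1, the endothelial gene of CD31, at 3.20 and 2.87, against -2.20 and -3.22 on basal 3 and 4 and -3.11 to -1.82 on injured arrays. Pecam1 was also above background on basal 3 and on injured 2 and 4. Itga7, the gene of the integrin kept by the sort, lay at 2.29 to 2.35 on injured and 1.01 to 1.60 on basal arrays, and Pax7, the factor that marks satellite cells, at 1.81 to 1.99 on injured and 4.38 to 5.40 on basal arrays. Of 12 satellite cell genes 11 were tested, 3 of them higher (Itga7, Itgb1 and Myod1) and 6 lower (Pax7, Vcam1, Sdc4, Cxcr4, Cd34 and Calcr). Their summed linear level was 143 to 173 on injured and 181 to 247 on basal arrays. Myod1 lay at 5.13 to 5.41 on injured and 4.34 to 4.65 on basal arrays. Against the sort, Itgam, the gene of CD11b, was above background on all 8 arrays, at 8.83 to 9.09 on injured and 8.74 to 8.95 on basal arrays. Ly6a, which encodes Sca1, lay at -3.20 to -1.73 on injured arrays, and at 1.34, 0.07, -3.30 and -3.49 on basal arrays 1 to 4. With 4 arrays a group, their number sets the precision.

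Values in what follows are log2 signals minus the 75th percentile of each array, so 0 is the level of the probe at that percentile. Differences are injured minus basal, and the level of 1 probe is not set against that of another. Adjusted p-values come from limma, with Benjamini-Hochberg adjustment over all genes or all probes tested, and a gene is called at an adjusted p under 0.05.

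**Figure D1:**
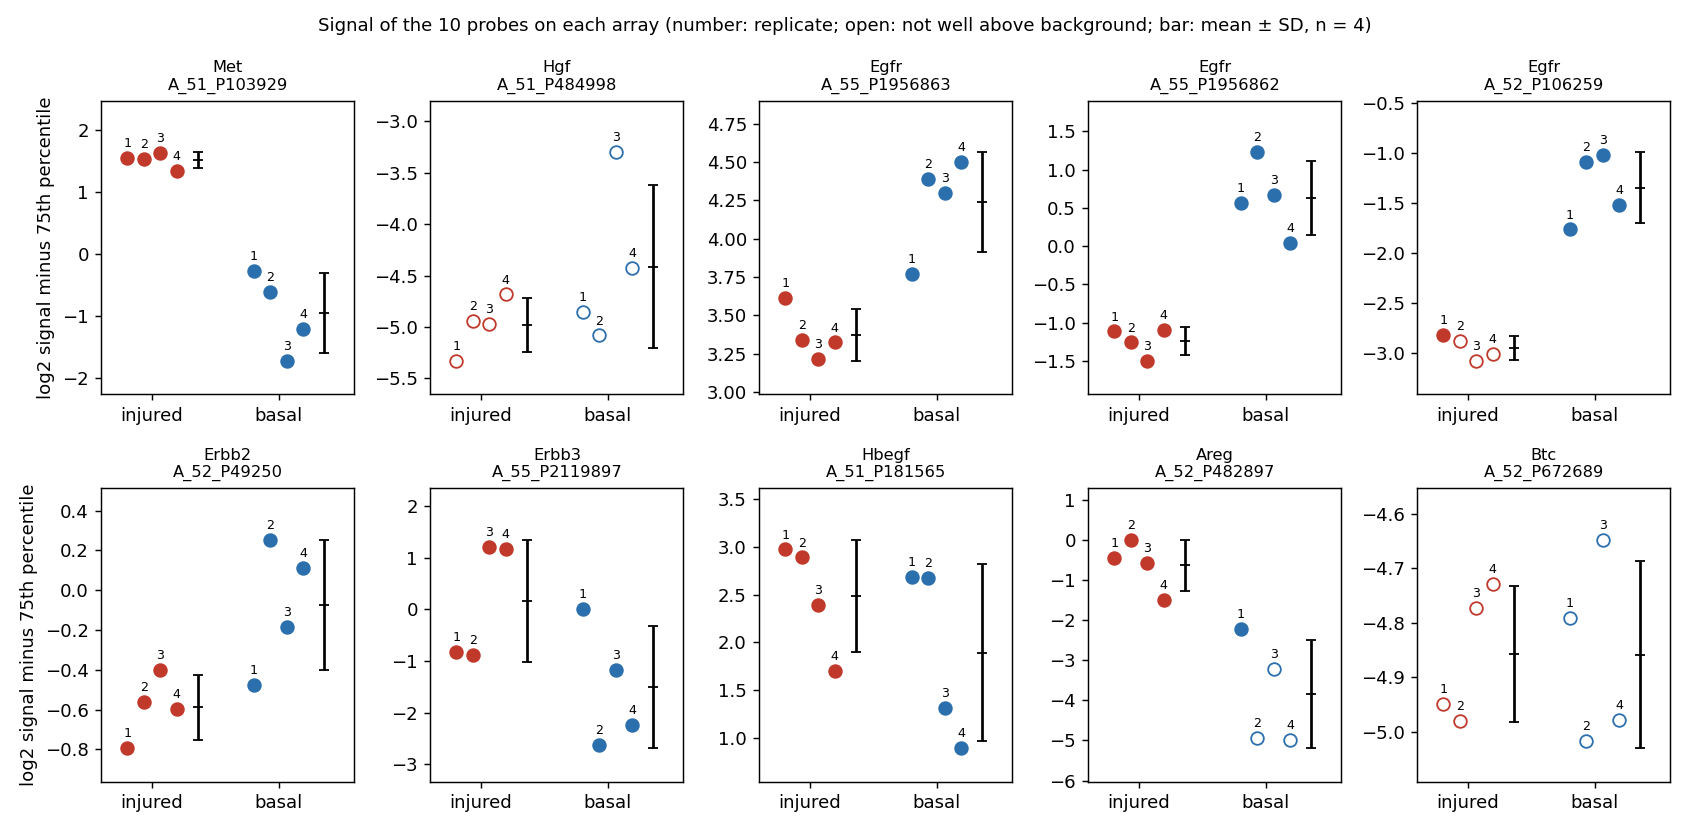
Log2 signal minus the 75th percentile (vertical axis) of each of the 10 probes on the 4 injured (left, red) and 4 basal (right, blue) arrays, with the replicate number above each point, open points where the probe was not well above background, and bars for the mean ± SD (n = 4). Met and Areg points of injured arrays lie above all basal points, Egfr points of injured arrays lie below all basal points on each of its 3 probes, and the groups overlap for the other genes.

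Met, the receptor of hepatocyte growth factor, had log2 signals of 1.55, 1.54, 1.64 and 1.34 on injured arrays 1 to 4, against -0.27, -0.61, -1.72 and -1.21 on basal arrays 1 to 4. All injured arrays lay above every basal array and close together, whereas the basal arrays spread over more than 1 log2 unit, with basal 3 lowest and basal 1 highest. The means were 1.52 ± 0.12 on injured and -0.95 ± 0.64 on basal arrays (SD, n = 4 each). Met rose by 2.47 ± 0.29 (SE; 95% interval 1.80 to 3.14; limma adjusted p = 0.000189). Its 8 to 10 spots per array agreed to a mean SD of 0.104, and all 8 arrays were above background. Of the genes tested, 7.42% had a larger difference than Met in either direction. Without basal 1 and 2, the arrays with the highest Pecam1 signal, the difference was 2.98 (adjusted p = 2.78e-05). With injured 1, whose Y-linked genes match its label, as the only injured array, it was 2.5 and not called (adjusted p = 0.0523). It was 1.67 (adjusted p = 2.43e-05) after normexp background correction, which adds an offset of 50 to the signal, and 1.49 (adjusted p = 0.0126) in the authors' deposited table.

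Hgf, the ligand of Met, was not well above background on any array. Its probe (A_51_P484998, chr5:16124829-16124888, plus strand, mm9) lay at -5.33 to -4.68 on injured and -5.08 to -3.30 on basal arrays, and it was not tested. Whether this probe can detect Hgf was not tested, so the values do not settle the level of its RNA.

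Egfr, the receptor of epidermal growth factor, was lower on injured arrays by each of its 3 probes. Its brightest probe, A_55_P1956863, had log2 signals of 3.62, 3.34, 3.22 and 3.32 on injured arrays 1 to 4, against 3.77, 4.39, 4.30 and 4.50 on basal arrays 1 to 4. The groups did not overlap, but basal 1 lay only just above injured 1, whereas the other basal arrays stood well clear of all injured arrays. Egfr fell by 0.87 ± 0.18 (SE; 95% interval for injured minus basal -1.28 to -0.45; limma adjusted p = 0.00353). Without basal 1 and 2 the difference was -1.03 (adjusted p = 0.00125). With injured 1 as the only injured array it was -0.62 (adjusted p = 0.279), and in the authors' deposited table -0.56 (adjusted p = 0.178), neither of them called. Averaging the 3 probes gave a larger difference of -1.45 (adjusted p = 0.00017).

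The second Egfr probe, A_55_P1956862, had log2 signals of -1.12, -1.26, -1.50 and -1.09 on injured arrays, against 0.57, 1.23, 0.67 and 0.04 on basal arrays. Here every basal array, basal 1 included, lay more than 1 log2 unit above all injured arrays. In the fit over all probes the difference was -1.87 ± 0.24, or 3.65-fold lower (SE, n = 4 per group; limma adjusted p = 0.00032). The third, A_52_P106259, had log2 signals of -2.82, -2.88, -3.08 and -3.02 on injured arrays, against -1.76, -1.08, -1.02 and -1.52 on basal arrays. Its injured values lay close together below every basal array, but only injured 1 was above background there, so the size rests in part on dim values. The difference was -1.61 ± 0.19, or 3.04-fold lower (limma adjusted p = 0.000194), and -0.48 after normexp background correction (adjusted p = 0.00172). Neither of these probes was called with the authors' deposited table (adjusted p = 0.126 for the second and 0.37 for the third). Of the 8 probes of these genes that were tested, 2 were called higher and 4 lower, where 31.7% and 25.1% of all 31306 probes tested were, 56.9% in either direction.

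The array assigns the first and second of these probes to the transcript NM_007912 and the third to NM_207655. The longer of these encodes the whole receptor, NM_207655, and NM_007912 is known as a shorter form that ends before the kinase domain. Which transcripts each probe detects was not tested. The signal of the second probe minus that of the first was -4.73 to -4.42 on injured and -4.46 to -3.16 on basal arrays, so it changed by -1.0 more than the first (exact permutation test over arrays, two-sided p = 0.0571, adjusted over the 3 pairs 0.0857). The third probe changed by -0.74 more than the first (exact p = 0.0286, adjusted 0.0857). That order turned after normexp background correction, with differences of -0.48 for the third and -0.81 for the first probe, and in the authors' deposited table, with -0.35 and -0.56. The changes of the second and the third probe differed by 0.26 (exact p = 0.343, also after adjustment). The smallest p that 4 against 4 arrays allow is 0.0286, which the third probe against the first reached. No pair passed the threshold after adjustment.

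Erbb2, the partner receptor that binds no ligand of its own, had log2 signals of -0.79, -0.56, -0.40 and -0.60 on injured arrays, against -0.48, 0.25, -0.19 and 0.11 on basal arrays. The groups overlapped, since basal 1 lay below injured 3. Erbb2 fell by 0.51 ± 0.18 (SE; 95% interval for injured minus basal -0.93 to -0.10; limma adjusted p = 0.0363), over 9 to 10 spots per array with a mean SD of 0.0924. The call needed most of the arrays. Its adjusted p was 0.0975 without injured 1 (-0.45), 0.0699 without injured 2 (-0.52), 0.0712 without injured 4 (-0.51), 0.0836 without basal 2 (-0.41) and 0.0794 without basal 4 (-0.45). It was also lost with no filter on dim probes (adjusted p = 0.0637) and with injured 1 as the only injured array (-0.72, adjusted p = 0.222). In the authors' deposited table the direction turned, to 0.42 (adjusted p = 0.379). Without basal 1 and 2 the difference was -0.55 (adjusted p = 0.0216), and after normexp background correction -0.34 (adjusted p = 0.0326).

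Erbb3, the neuregulin receptor, had log2 signals of -0.82, -0.89, 1.20 and 1.18 on injured arrays, against 0.01, -2.62, -1.18 and -2.25 on basal arrays. Injured 3 and 4 lay well above all other arrays, injured 1 and 2 lay below basal 1, and the basal arrays spread widely. The difference was 1.68 ± 0.71 (SE; 95% interval 0.06 to 3.29) and was not called (limma adjusted p = 0.0687). It was called without injured 2 (2.03, adjusted p = 0.05 after rounding) and without basal 1 (2.18, adjusted p = 0.0192), and with injured 1 as the only injured array it was 0.68 (adjusted p = 0.664). In the authors' deposited table it was -0.32 (adjusted p = 0.755). Within groups Erbb3 varied more than nearly all genes: only 0.3% of genes tested had a larger SD among injured arrays and 3.8% among basal arrays. The median SD over all genes tested was 0.174 on injured and 0.339 on basal arrays, and that of Erbb3 was 1.18 on each.

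The muscle fibre markers Acta1, skeletal actin, and Tnnt3, fast troponin T, also stood higher on injured 3 and 4. Acta1 lay at 4.52 and 4.27 there and at 2.78 and 2.75 on injured 1 and 2, and Tnnt3 at 4.30 and 4.35 there and at 3.33 and 3.41 on injured 1 and 2. Tnni2 followed the same pattern (3.54, 3.63, 4.44 and 4.38 on injured arrays 1 to 4), but Atp2a1 did not (6.25, 6.39, 6.52 and 6.23). Pvalb lay at -0.61 to -0.45 on injured arrays and was called lower. Of 10 muscle fibre genes 6 were tested, 3 of them higher and 2 lower, and their summed linear level was 106 to 157 on injured and 43.2 to 52.2 on basal arrays. Most of that sum is Atp2a1. Ckm, the muscle creatine kinase, was above background on 1 basal array alone. Erbb3 is also a receptor of Schwann cells, whose lineage factor Sox10 was lower on injured arrays. It lay at -2.23 to -1.80 on injured and -1.02 to 0.17 on basal arrays. Of 10 Schwann cell genes 6 were tested, 1 of them higher and 3 lower, with a summed level of 13.2 to 16.6 on injured and 52.5 to 69.9 on basal arrays. Most of the basal sum is Pmp22 alone, at 5.45 to 5.98 there and 2.12 to 2.70 on injured arrays. Ngfr was the higher gene (0.83 ± 0.29, limma adjusted p = 0.0333). Mbp, the other defining marker, was not called, and Cdh19 was not above background on any array. The part of these cells in the Erbb3 values was not tested.

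Areg, which encodes the Egfr ligand amphiregulin, had log2 signals of -0.45, 0.00, -0.57 and -1.51 on injured arrays, against -2.23, -4.94, -3.21 and -4.99 on basal arrays. Every injured array lay above every basal array, with injured 4 lowest in its group and basal 1 highest in its group. The means were -0.63 ± 0.63 on injured and -3.84 ± 1.36 on basal arrays (SD, n = 4 each). Areg rose by 3.21 ± 0.63 (SE; 95% interval 1.77 to 4.66; limma adjusted p = 0.0025). All 4 injured arrays but only basal 1 were above background, so the size rests in part on dim values. After normexp background correction it was 0.99 (adjusted p = 0.000676), and it was 2.01 in the authors' deposited table (adjusted p = 0.00683). Without basal 1 and 2 the difference was 3.47 (adjusted p = 0.00171), and with injured 1 as the only injured array 3.39, which was not called (adjusted p = 0.109).

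Hbegf, heparin-binding EGF-like growth factor, is a ligand of Egfr and Erbb4. Its probe (A_51_P181565, chr18:36664738-36664797, minus strand, mm9) had log2 signals of 2.97, 2.89, 2.39 and 1.70 on injured arrays, against 2.69, 2.67, 1.31 and 0.89 on basal arrays. Basal 1 and 2 lay among the injured arrays, and basal 3 and 4 below all of them. The difference was 0.60 ± 0.47 (SE; 95% interval -0.48 to 1.67) and was not called (limma adjusted p = 0.298). Without basal 1 and 2 it was 1.39 and called (adjusted p = 0.0149). With injured 1 as the only injured array it was 1.08 (adjusted p = 0.387).

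Basal 1 and 2 are also the arrays with the highest Pecam1 signal, though the endothelial genes Tek and Kdr had signal on basal 3 and 4 too. Of 12 endothelial genes 10 were tested, 1 of them higher and 2 lower, and their summed linear level was 10.71 to 13.22 on injured arrays and 49.56, 38.90, 28.84 and 24.27 on basal arrays 1 to 4. Tek, the angiopoietin receptor, lay at -1.24 to -0.44 on injured arrays and at 4.33 and 3.97 on basal 3 and 4, above its 3.5 and 3.13 on basal 1 and 2. Cdh5, the endothelial cadherin, was above background on basal 1 and 2 alone, at -1.36 and -1.99. Tie1, Emcn, Cldn5, Esam, Egfl7, Flt1, Vwf and Eng were also lower on basal 3 and 4 than on basal 1 and 2. Kdr lay at 3.02 to 3.32 on injured and 2.63 to 2.93 on basal arrays and was called higher (limma adjusted p = 0.0224). The sums on basal 3 and 4 are mostly Tek and Kdr, and those on injured arrays mostly Kdr. Of 10 neutrophil and mast cell genes 1 was tested, Tpsb2, and it was lower. Their defining markers S100a8 and S100a9 were above background on basal 1 and 2 and on injured 1 alone. S100a9 lay at -0.88 and 1.83 on basal 1 and 2, at -5.27 and -3.21 on basal 3 and 4, and at -2.10 on injured 1. The part of these cell types in the Hbegf values was not tested. Btc, which encodes betacellulin, a ligand of Egfr and Erbb4, was not above background on any array (A_52_P672689, chr5:91786948-91787007, minus strand, mm9). Its probe lay at -4.98 to -4.73 on injured and -5.02 to -4.65 on basal arrays, and it was not tested. Whether this probe can detect Btc was not tested.

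**Figure D2:**
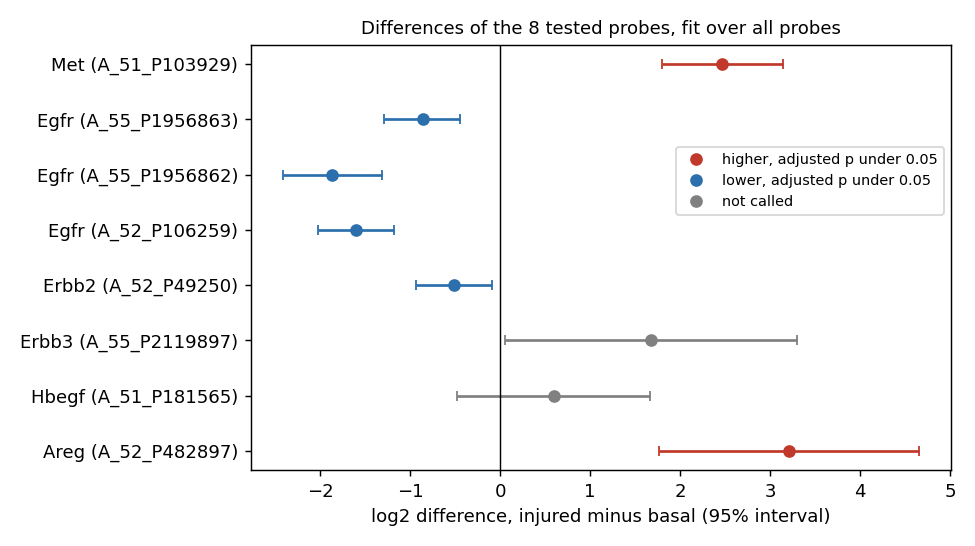
Log2 difference, injured minus basal (horizontal axis), of the 8 tested probes with 95% intervals from the limma fit over all 31306 probes tested, n = 4 arrays per group. The intervals of Met and Areg lie above 0, those of the 3 Egfr probes and Erbb2 below 0, and that of Hbegf spans 0. Erbb3 was not called although its interval lies just above 0, since the call uses adjusted p-values.

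Of the 6 genes tested, Met, Areg and Egfr had groups that did not overlap, where 57.2% of all genes tested did not. In the plot of deviations, basal 1 was the basal array nearest to the injured arrays for Met, Egfr by its brightest probe, Erbb2, Erbb3 and Areg. For Hbegf both basal 1 and basal 2 lay near them. By its second probe, Egfr on basal 1 did not stand apart from the other basal arrays. With the other arrays kept, leaving out basal 1 made the difference larger for each tested gene: 2.70 for Met, -1.02 for Egfr, -0.65 for Erbb2, 2.18 for Erbb3, 0.86 for Hbegf and 3.75 for Areg.

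**Figure D3:**
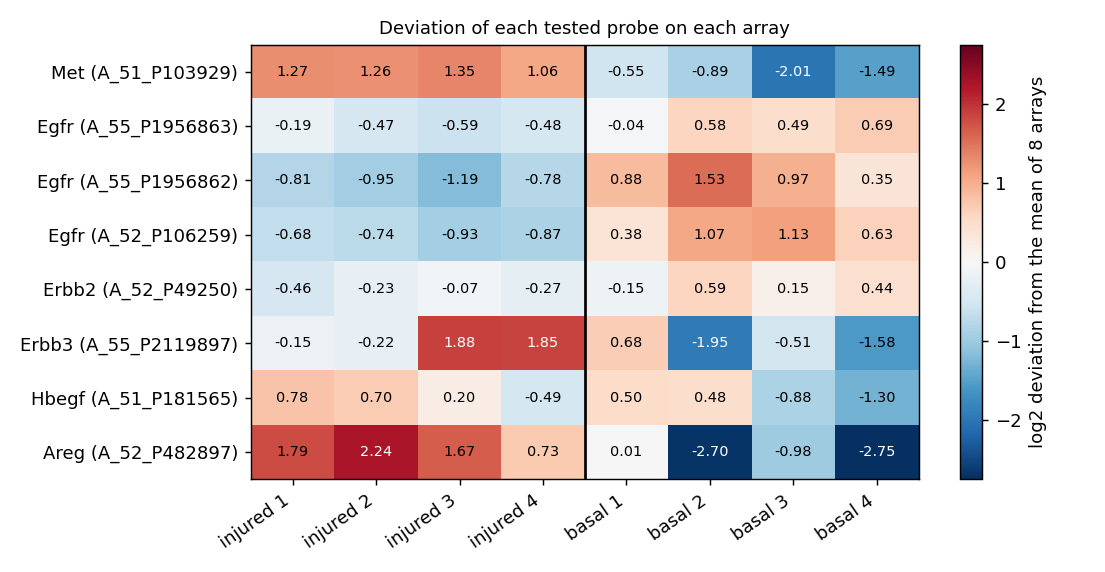
Deviation of each tested probe from its own mean over the 8 arrays, in log2 units (colour scale, values printed), for injured arrays 1 to 4 on the left and basal arrays 1 to 4 on the right. Met, the 3 Egfr probes and Areg separate the groups, though on basal 1 the brightest Egfr probe lies at -0.04 and Areg at 0.01. Erbb3, Areg and Hbegf differ most between arrays of the same group.

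The genes whose pattern over the 8 arrays was most like that of a receptor or ligand were looked for among the 10660 other genes above background on all arrays. The likeness is Pearson's r over the same 8 arrays, so it holds the difference between groups as well as the differences within them. The genes most like Met were Cyc1, Naa10 and Ddah1 (r = 0.999, 0.999 and 0.998), and after removal of the group means r was 0.984 to 0.987. Cyc1 encodes cytochrome c1 of respiratory complex III, and Naa10 an N-terminal acetyltransferase. Those most like Egfr were Bbs2, Plcd1 and Hoxc5 (r = 0.982, 0.982 and 0.981), and those most like Erbb2 were Septin5, Exoc4 and Acot6 (r = 0.981, 0.978 and 0.972). For Erbb3 they were Gucy2e, Plpp1 and Cdhr2 (r = 0.976, 0.964 and 0.963), and for Hbegf Rpf1, Ampd2 and Slc25a28 (r = 0.954, 0.950 and 0.946). Over so few arrays and so many genes, high values of r at the top of a list are given as a description only. Between members, Met and Egfr had r = -0.92, and Egfr and Erbb2 r = 0.823, over 8 arrays that fall into 2 groups.

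The other genes of these pathways were described by lists. Of the 9 further ErbB receptors and ligands, only Nrg2, a neuregulin, could be tested (0.14 ± 0.37, limma adjusted p = 0.765). Its values of -1.21 to -0.83 on injured arrays lay within the -1.74 to 0.03 of basal arrays. The receptor Erbb4 and the ligands Egf, Ereg, Epgn, Nrg3 and Nrg4 were not above background on any array. Tgfa was above background on 1 injured array, and Nrg1, the neuregulin of motor axons and Schwann cells, on 2 injured arrays and 1 basal array.

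For the Met branch, 4 of 10 genes of HGF activation, its inhibitors and the related receptor Ron with its ligand could be tested. The count was 1 higher, 1 lower and 2 not called, with a median difference of -0.04, against 0.17 over all genes tested. Plat, tissue plasminogen activator, which can activate hepatocyte growth factor, fell by 2.88 ± 0.22 (limma adjusted p = 2.49e-05), at -2.17 to -1.27 on injured and 1.08 to 1.57 on basal arrays. The groups did not overlap. Spint2, a membrane inhibitor of the proteases that activate hepatocyte growth factor, rose by 0.35 ± 0.13 (adjusted p = 0.0401). That call was lost without injured 1, 3 or 4 or without basal 2 or 3 (adjusted p 0.0607 to 0.116), with quantile normalization (0.25, adjusted p = 0.114) and in the authors' deposited table (0.81, adjusted p = 0.285). Plau, urokinase, differed by -0.16 (adjusted p = 0.819) and Spint1 by 0.08 (adjusted p = 0.791).

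All 12 genes of the shedding of ErbB ligands could be tested, with 2 higher, 5 lower and 5 not called and a median of -0.14. Adam8 and Adam19, membrane metalloproteases, rose by 2.47 ± 0.44 and 2.43 ± 0.29 (limma adjusted p = 0.00154 and 0.000212), and both were higher on all injured than on every basal array. Adam8 was above background on only 2 basal arrays. Adam17, the main sheddase of Areg and Hbegf, fell by 0.39 ± 0.13 (adjusted p = 0.0336). Its other tested probe changed by -0.14 and was not called, and the mean of both gave -0.27 (adjusted p = 0.14). The direction of Adam17 turned in the authors' deposited table (0.99, adjusted p = 0.147). Its call was lost without injured 1, 3 or 4 or basal 3 or 4 (adjusted p 0.0613 to 0.0865) and with quantile normalization (adjusted p = 0.054). Rhbdf2, the inactive rhomboid iRhom2 that brings Adam17 to the cell surface, was lower (adjusted p = 6.19e-05). It was above background on all basal and no injured array. Set against the dimmest probe above background on each injured array, it was 4.74-fold lower, which is no minimum under other processing. Its difference was -1.18 after normexp background correction and -0.57 in the authors' deposited table, where the call was lost (adjusted p = 0.375). Timp3, the tissue inhibitor that acts on Adam17, fell by 3.59 ± 0.35 (adjusted p = 7.19e-05), at -1.79 to -1.25 on injured and 0.97 to 2.63 on basal arrays. Nrd1, nardilysin, which enhances shedding, fell by 1.44 ± 0.13 (adjusted p = 4.49e-05), and Adam15 by 1.33 ± 0.45 (adjusted p = 0.0316), with groups that overlapped. The Adam15 call was lost without injured 1, 3 or 4 or basal 2 (adjusted p 0.0658 to 0.0739) and in the authors' deposited table (-0.42, adjusted p = 0.586).

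The next list held 13 genes, brakes of these receptors and relatives of such brakes. Of the 12 tested, 2 were higher, 4 lower and 6 not called, with a median of -0.0026. Lrig1, a membrane protein that promotes degradation of ErbB receptors and Met, fell by 2.27 ± 0.34 (limma adjusted p = 0.000599), and its other tested probe was lower too. Errfi1, also called Mig6, which binds and inhibits the Egfr kinase, fell by 1.30 ± 0.22 (adjusted p = 0.00105), and it lay at 1.22 to 1.98 on injured and 2.78 to 3.40 on basal arrays. Its difference was -0.13 in the authors' deposited table, where it was not called (adjusted p = 0.863). Lrig3 was lower (adjusted p = 0.0102), by 1.36-fold when set against the dimmest probe above background on each injured array. It was above background on no injured array and 3 basal arrays, and its call was lost with the values of the authors' deposited table (-0.23, adjusted p = 0.705). Lrig2 fell by 0.54 ± 0.13 (adjusted p = 0.00696), a direction that turned in the authors' deposited table (0.45, adjusted p = 0.449). Cbl, the ubiquitin ligase that marks active Egfr and Met for degradation, rose by 1.57 ± 0.40 (adjusted p = 0.00919). Rnf41, also called Nrdp1, a ubiquitin ligase of Erbb3, rose by 0.86 ± 0.17 (adjusted p = 0.00243), but its other probe changed by -0.08, and the mean of both gave 0.39, which was not called (adjusted p = 0.104). Cblb, a relative of Cbl, differed by 0.01 (adjusted p = 0.99).

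Of 18 receptor adaptors and proximal effectors 12 could be tested, with 4 higher, 3 lower and 5 not called and a median of -0.20. Gab1, the docking protein that carries much of the Met signal, fell by 1.72 ± 0.24 (limma adjusted p = 0.000466), and Stat3, a transcription factor that Met and Egfr activate, by 1.55 ± 0.20 (adjusted p = 0.000267). Pik3r1, the regulatory subunit of PI3 kinase, fell by 2.95 ± 0.58 (adjusted p = 0.00241) and was above background on only 1 injured array. These 3 calls were lost in the authors' deposited table, with differences of -0.12 for Gab1 (adjusted p = 0.884), -0.36 for Stat3 (adjusted p = 0.647) and -0.62 for Pik3r1 (adjusted p = 0.341). The higher genes were Crk, an SH2 and SH3 adaptor (0.82), Pik3ca, the catalytic subunit of PI3 kinase (0.72), Ptpn11, the phosphatase Shp2 (0.54), and Grb2, the adaptor that couples receptors to Ras (0.42), with adjusted p 0.00154 to 0.0254. The Pik3ca call was lost without injured 2 or 3 or basal 2 (adjusted p 0.0556 to 0.0672) and that of Grb2 without injured 2 or 3 or basal 4 (adjusted p 0.0507 to 0.0692). With quantile normalization neither Ptpn11 (0.35, adjusted p = 0.0659) nor Grb2 (0.20, adjusted p = 0.194) was called, and in the authors' deposited table Grb2 was not (0.28, adjusted p = 0.495).

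Downstream, 19 of 21 genes of the Ras-ERK core and the ERK response could be tested, with 9 higher, 4 lower and 6 not called and a median of 0.37. The GTPase Hras rose by 2.24 ± 0.18 (limma adjusted p = 3.37e-05), and Fosl1, an AP-1 subunit that ERK stabilises, by 2.47 ± 0.87 (adjusted p = 0.036). The Fosl1 call was lost without any 1 of the injured arrays and without basal 3 (adjusted p 0.0631 to 0.0773), and without basal 4 the difference was 1.59 (adjusted p = 0.0327). Dusp5, a nuclear phosphatase of ERK, rose by 1.87 ± 0.39 (adjusted p = 0.00339). The kinase Braf fell by 1.49 ± 0.16 (adjusted p = 0.000134), and among the early response genes Egr1 fell by 3.31 ± 0.21 (adjusted p = 1.11e-05), Ier3 fell by 4.47 ± 0.45 (adjusted p = 8.35e-05) and Phlda1 fell by 1.09 ± 0.14 (adjusted p = 0.000274). Ier3 was above background on only 1 injured array. Braf (-0.08, adjusted p = 0.919), Phlda1 (-0.43, adjusted p = 0.37) and Ier3 (-2.19, adjusted p = 0.0533) lost their calls with the authors' deposited table. After normexp background correction several of the named list genes were still called but with smaller differences, namely Plat (-1.80), Adam8 (1.18), Timp3 (-2.48), Nrd1 (-0.54), Lrig1 (-1.32), Lrig3 (-0.29), Cbl (0.67), Gab1 (-1.12), Pik3r1 (-0.90), Fosl1 (1.44), Dusp5 (0.86) and Ier3 (-2.39). Adam17 and Spint2 were no longer called (adjusted p = 0.164 and 0.109). These lists were read from the same fit, and nothing is called particular to them beside the 60.1% of all genes that were called.

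**Figure D4:**
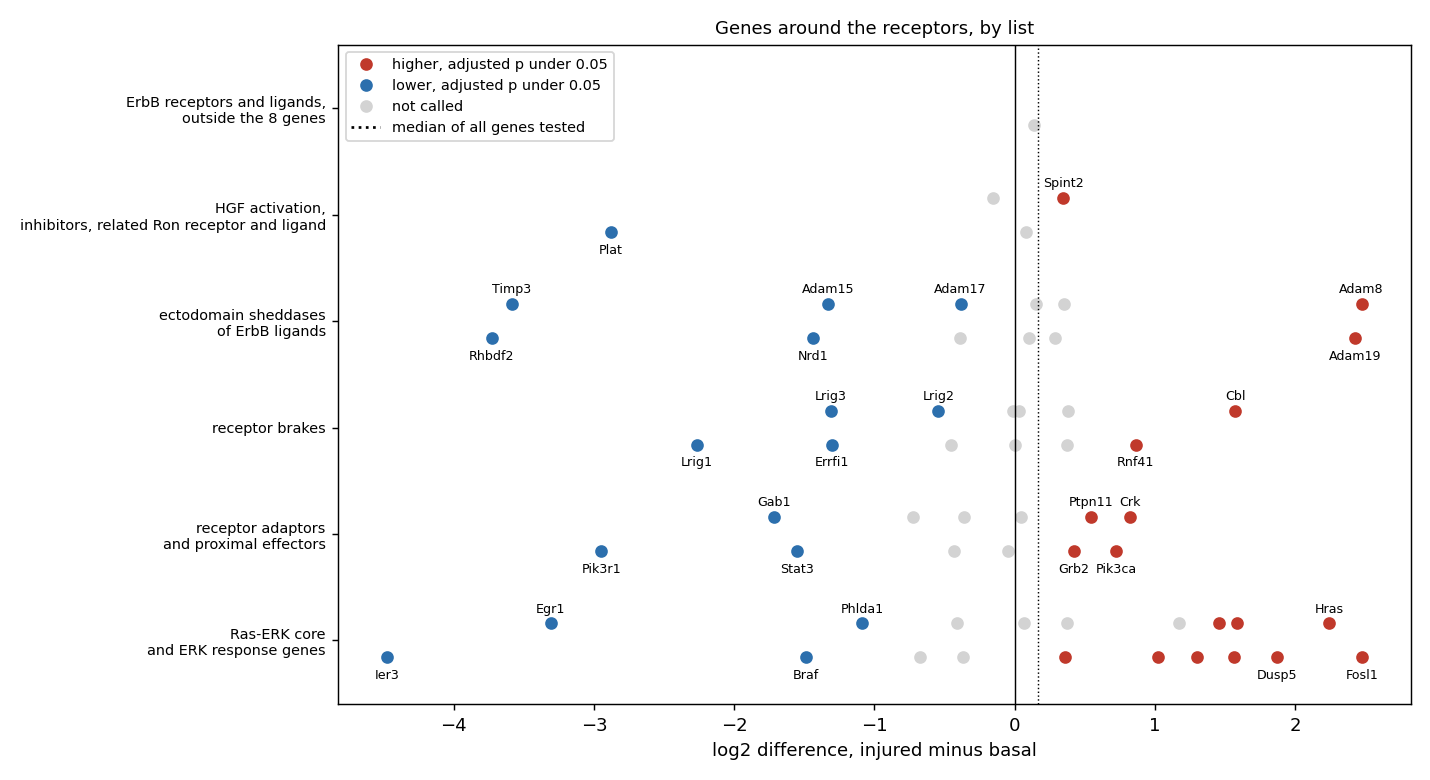
Log2 difference, injured minus basal (horizontal axis), of each tested gene of 6 lists around the receptors (rows), in red where called higher, blue where called lower and grey where not called, with called genes named in part. The dotted line is the median of all genes tested, 0.17. Called genes lie on both sides of it in each list that has any, and Rhbdf2 and Lrig3 are drawn at their measured differences, which rest on values not above background.

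Areg, Egfr, Erbb2, Erbb3 and Met are also genes of epithelia, so epithelial markers were measured. Of 8 epithelial genes 4 were tested and all 4 were higher, with a summed linear level of 7.55 to 10.2 on injured and 2.98 to 3.60 on basal arrays. The defining markers Epcam and Cdh1 were not above background on any array, and Krt8, a keratin, lay at 0.44 to 1.01 on injured and -4.44 to -1.68 on basal arrays. Of 12 leukocyte and macrophage genes 7 were tested, 1 of them higher and 1 lower, with a summed level of 494 to 585 on injured and 473 to 542 on basal arrays. Most of that sum is the 1 Itgam probe, and whether it detects Itgam RNA was not tested. Csf1r, the lower gene (limma adjusted p = 0.0404), lay at 5.15 to 5.30 on injured and 5.45 to 5.60 on basal arrays. Tyrobp was the higher gene (1.99, limma adjusted p = 0.0185), above background on all injured but only 2 basal arrays. Fcer1g was above background on all 8 arrays and was not called (limma adjusted p = 0.0604). Ptprc, the gene of CD45, lay at -1.45 to -0.91 on injured and -1.67 to -0.03 on basal arrays. Genes of 2 further cell types were measured as well. Of 12 genes of fibro-adipogenic progenitors 8 were tested, 1 of them higher and 5 lower, with a summed level of 55.7 to 95.2 on injured and 76.8 to 115 on basal arrays. Dcn, the matrix proteoglycan decorin, lay at -4.73 to -1.73 on injured and 3.86 to 4.79 on basal arrays, and Pdgfra, which defines these cells, was not above background on any array. Col1a2 went the other way (limma adjusted p = 0.00965), at 5.5 to 6.4 on injured and 2.6 to 5.2 on basal arrays. It makes up most of the injured sum, and Pi16 and Clec3b were not called. All 12 pericyte and smooth muscle genes were tested, 7 of them lower and 5 not called, with a summed level of 67.4 to 95.7 on injured and 152 to 213 on basal arrays. Most of that sum is Notch3 and Des, and Des was also counted among the satellite cell markers. The defining marker Acta2 differed by -1.03 (limma adjusted p = 0.00941). Myh11, the other defining marker, differed by -0.64 and was not called (adjusted p = 0.139). Cspg4, Tagln, Des and Higd1b were not called either. Among the lower genes, the pericyte receptor Pdgfrb lay at -4.93 to -4.71 on injured arrays, none of them above background, and at -2.05 to -0.51 on basal arrays. The part of other cells in the Met, Areg, Egfr and Erbb2 values was not tested.

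The size of each difference moved with the processing, and the plot of settings shows it for the 6 tested genes. Met and Egfr were called in the same direction in each alternative with all 8 arrays except Egfr in the authors' deposited table, and Met and Egfr were also called without each single array. Areg was called in each of these as well, except that it could not be tested where all 8 arrays had to be above background. With injured 1 as the only injured array, limma called none of the 6, and 2 of them, Met and Areg, had an unadjusted p under 0.05.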

How the data were processed

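The authors' deposited scanner files hold spot intensity from Agilent Feature Extraction (version 10.7.3.1 per the file headers), background-subtracted and not normalized between arrays. The authors' deposited table holds values that look like log2, with column medians of 8.05 to 8.16. How it was made is not stated in these sources. It served as an alternative only.

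The log2 of each processed signal was taken and the 75th percentile of the array subtracted. The 1119 flagged outlier spots were left out and spots of a probe averaged. Probes were named through RefSeq by accession (26300), symbol (2044) or synonym (355), or kept the array's name (548), and 26434 had no name. Each gene took its brightest probe, if 3 or more of the 4 arrays of either group had it well above background (13634 of 21743 genes). The test was a limma fit (limma 3.58.1 and R 4.3.3; version 1.17.8 of data.table read the files), two-sided, with 6 residual and 2.55 prior degrees of freedom, checked on simulated data. Unadjusted p was under 0.05 for 8804 genes, and 8197 were called. Pathway and marker lists were described by counts, medians and summed levels, without 3 genes of 2 lists that are not reported here. Named list genes were up to 3 called per direction with the largest difference, or every called gene where 5 or fewer were. Likeness was ranked for genes above background on all 8 arrays.

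The genes, lists and alternatives were chosen with earlier results of these data known. The alternatives were quantile normalization, normexp (offset 50), median scaling, the authors' table, other filters, the mean of probes, limma's trend, robust and array weight options, a replicate block and omitted arrays. A slide block was not run, since each slide holds 1 group. Same-numbered arrays held the same position on their slides, and the labels give no pairing. Their deviations from the group means correlated weakly over genes (r = 0.0591, 0.0591, -0.0111 and 0.187). Such r cannot show that no pairing exists.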

Additional observations from a re-analysis of the deposited data

How the results depend on the processing

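In the authors' deposited table there were 4061 called genes, 3289 higher and 772 lower (81% higher), where the 75th percentile gave 8197, 4821 higher and 3376 lower (58.8% higher). The median difference of all genes was 0.471 there against 0.168, and 2 genes and 2 probes of the receptors and ligands were called. In that table Erbb2 (0.42), Adam17 (0.99) and Lrig2 (0.45) turned direction. The table tracked the scanner values of basal 2, 3 and 4 less closely, and the cause was not tested. With injured 1 as the only injured array, 1729 genes were called, 762 higher and 967 lower, with 0 of the 6 genes and 0 of the 8 probes in limma, of which 2 genes (Met and Areg) and 4 probes had an unadjusted p under 0.05. The lone array is assumed to vary like the basal arrays, so fewer samples bear on it. Leaving out 1 array gave 7178 to 8379 called genes (4148 to 4926 higher, 3006 to 3453 lower), 3 to 5 of the 6 genes and 5 to 7 of the 8 probes. With a replicate block, 7751 genes were called, with 5 of the 6 genes and 7 of the 8 probes, and Hbegf was the added gene (0.60, adjusted p = 0.0449). Among single genes and probes, 658 values under an alternative kept their direction and side of the threshold, 96 lost their call, 4 gained one, 1 moved and 3 turned. Areg, Hgf, Btc and the third Egfr probe are limited by signal near background.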

Other observations

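In the authors' deposited table, the 10 spots of the Met probe differed from each other more on some basal arrays than in the scanner files. Their SD was 1.15 on basal 4 and 0.831 on basal 3, with values of 9.85 to 13.6 on basal 4, and it was 0.0509 to 0.141 on injured arrays. In the scanner files the SD of the same spots was 0.0449 to 0.222 over all 8 arrays. Each column of that table was set against the arrays by Pearson's r over non-control spots. The r with its own array was 0.846, 0.941, 0.923 and 0.936 for injured 1 to 4 and 0.952, 0.765, 0.678 and 0.571 for basal 1 to 4. The columns of injured 1, 3 and 4 were most like the array of injured 2.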
